A study of Mus musculus with 2 samples.

Results

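Pitx1, Pitx3, Otx1, Otx2, Gsc, Barx1 and Barx2 are homeobox genes of the oral, jaw and tooth field. They were found in the deposited gene tables by gene identifier, as 7 of 43346 Ensembl genes, together with their 19 annotated transcripts of 103639. RNA was sequenced from the facial prominences of B6NCrl mouse embryos at embryonic day 10.5, with no treatment, mutant or second tissue named in the labels. The study comprised 1 group of 2 biological replicates, replicate 1 a pool of 69 embryos and replicate 2 a pool of 51, males and females pooled in each. All cell types of the prominences were sequenced together from 10 ng of total RNA per library. Fewer cells of a type and less RNA per cell therefore cannot be told apart for any gene below. The libraries held 40059176 and 39531700 expected counts in genes, that is, reads assigned to features by estimate. Levels are given as TPM, transcript abundance scaled to a fixed total, which corrects for gene length and for depth, and as mean ± SD with n = 2 pools.

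Homeobox genes encode transcription factors that bind DNA through the homeodomain, a fold of helices whose last lies in the major groove. Position 50 of the domain, within that helix, helps to set which bases are recognised. In the face, signals from the ectoderm such as Fgf8 and Bmp4 set up fields of homeobox gene expression in the mesenchyme beneath, and these fields help to specify jaw skeleton and tooth type. Pitx1 acts in oral ectoderm, mandibular arch, pituitary and hindlimb, and Pitx3 in lens and midbrain dopamine neurons. Otx1 and Otx2 act in forebrain, midbrain, sense organs and cranial neural crest. Gsc, known from the gastrula organizer, later acts in jaw mesenchyme. Barx1 acts in the mesenchyme of the molar-forming jaw and of the stomach, and Barx2 in facial epithelia and muscle.

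The coding bases of the recognition helix are shown because they divide these genes by their DNA-binding class. Each line runs 5′ to 3′ over the 17 codons of homeodomain residues 42 to 58, and capitals mark the codon of residue 50.
Pitx1: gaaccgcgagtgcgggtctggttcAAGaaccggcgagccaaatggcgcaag
Pitx3: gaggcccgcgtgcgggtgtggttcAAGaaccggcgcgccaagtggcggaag
Otx1: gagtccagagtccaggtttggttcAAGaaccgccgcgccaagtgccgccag
Otx2: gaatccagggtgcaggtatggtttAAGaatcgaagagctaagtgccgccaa
Gsc: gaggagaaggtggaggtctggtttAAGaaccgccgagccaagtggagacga
Barx1: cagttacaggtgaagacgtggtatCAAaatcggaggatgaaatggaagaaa
Barx2: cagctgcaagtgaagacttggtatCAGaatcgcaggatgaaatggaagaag

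The codon was AAG, for lysine, in Pitx1, Pitx3, Otx1, Otx2 and Gsc, and CAA or CAG, for glutamine, in Barx1 and Barx2. The bases were read from GENCODE M21 transcripts on GRCm38, the assembly also called mm10. On its minus strand lie the stretches of Pitx1 (chr13:55826576-55828454), Pitx3 (chr19:46136570-46136997), Otx1 (chr11:21997023-21998384), Otx2 (chr14:48659291-48661313), Gsc (chr12:104471611-104472007) and Barx2 (chr9:31854116-31854166). That of Barx1 lies on the plus strand (chr13:48665432-48665482). An intron splits the stretch in all 5 lysine genes, whose bases are joined here, and in neither Barx gene. Over the 180 bases that code the homeodomain, Pitx1 and Pitx3 were identical at 158 bases (87.8%), Otx1 and Otx2 at 144 (80.0%) and Barx1 and Barx2 at 139 (77.2%). Across families the values ran from 75 identical bases for Otx2 with Barx2 to 127 for Pitx3 with Otx1.

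Barx1 and Pitx1 were the most abundant of the 7, Gsc, Otx2 and Otx1 were intermediate, and Barx2 and Pitx3 stayed below detection, for which both libraries had to reach 1 TPM. Thus 5 of 7 were detected, beside 58.2% of 21474 named protein coding genes (12494). The median level of detected protein coding genes was 20.1 TPM, and Barx1 and Pitx1 stood above it. The 7 genes summed to 131 TPM in replicate 1 and 101 TPM in replicate 2. Barx1 and Pitx1 together held 71.6% and 72.8% of these sums.

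**Figure D1:**
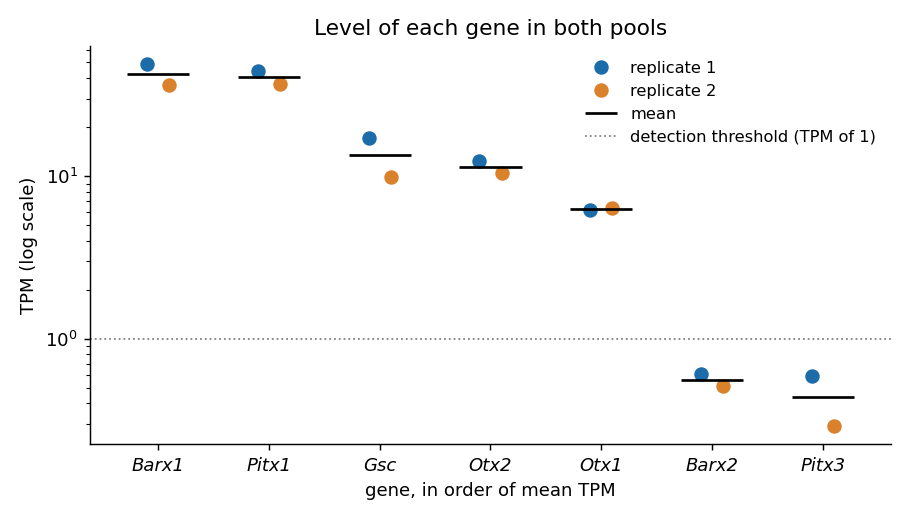
TPM of each gene on a log axis, with replicate 1 and replicate 2 as points, the mean of the 2 pools as a bar and the detection threshold of 1 TPM as a dotted line. Barx1 and Pitx1 lie together near 40 TPM, Gsc shows the widest gap among the detected genes, and Barx2 and Pitx3 lie below the threshold in both pools.

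Among the genes of jaw mesenchyme, Barx1 (ENSMUSG00000021381, chromosome 13, 48662998 to 48666507) had 48.9 TPM in replicate 1 and 36.3 TPM in replicate 2, or 42.6 ± 8.88. These came from 1685 and 1245 expected counts, with exact Poisson 95% intervals of 1606 to 1767 and 1177 to 1316. The intervals did not overlap, and like all such intervals here they cover counting error only. Barx1 stood above 82.2% of protein coding genes.

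Gsc (ENSMUSG00000021095, chromosome 12, 104471209 to 104473330) had 17.3 TPM in replicate 1 and 9.84 TPM in replicate 2, or 13.6 ± 5.25. Its SD was 38.8% of its mean, the highest share among the 5 detected members. Its counts of 535 (interval 491 to 582) and 303 (270 to 339) did not overlap within counting error either.

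Pitx1, the oral ectoderm and mandibular gene (ENSMUSG00000021506, chromosome 13, 55825051 to 55836192), had 44.6 TPM in replicate 1 and 36.9 TPM in replicate 2, or 40.8 ± 5.42. It stood above 81.6% of protein coding genes, next to Barx1. Its relative Pitx3 (ENSMUSG00000025229, chromosome 19, 46135685 to 46148326) had 0.59 and 0.29 TPM, or 0.44 ± 0.212. The 19 and 8 reads behind Pitx3 had intervals of 11.4 to 29.7 and 3.45 to 15.8, which overlapped.

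Of the head-patterning genes, Otx2 (ENSMUSG00000021848, chromosome 14, 48657677 to 48673819) had 12.4 TPM in replicate 1 and 10.4 TPM in replicate 2, or 11.4 ± 1.41. Otx1 (ENSMUSG00000005917, chromosome 11, 21994764 to 22002897) had 6.17 and 6.36 TPM, or 6.27 ± 0.134. Otx1 was the steadiest member, with 460 and 462 counts.

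Barx2 (ENSMUSG00000032033, chromosome 9, 31846044 to 31913462) had 0.61 TPM in replicate 1 and 0.51 TPM in replicate 2, or 0.56 ± 0.0707. Its 30 and 25 reads had overlapping intervals of 20.2 to 42.8 and 16.2 to 36.9. Reads of Barx2 and Pitx3 were thus present in both pools, at a level below the detection threshold.

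**Figure D2:**
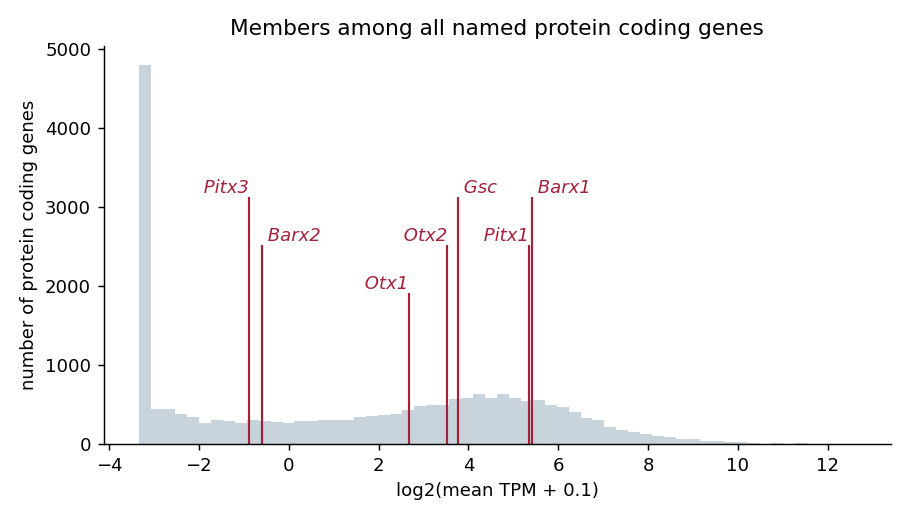
Histogram of log2(mean TPM + 0.1) over 21474 named protein coding genes, with the 7 genes as labelled vertical lines whose heights carry no meaning. Barx1 and Pitx1 lie to the right of the main hump's middle, Gsc, Otx2 and Otx1 to its left, and Barx2 and Pitx3 far below it.

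Neighbours in this order were compared on log2(TPM + 0.1), with a spread between pools estimated from the 200 genes closest in level, and a difference was called when 0 lay outside its 95% interval and the libraries did not differ in sign. Gene-specific errors of TPM are not part of the interval. Of 8 pairs compared, 5 differed beyond this spread. Pitx1 exceeded Gsc 3.10-fold (95% interval 2.60 to 3.68), Otx2 exceeded Otx1 1.80-fold (1.33 to 2.43) and Otx1 exceeded Barx2 9.67-fold (3.77 to 24.8). Within families, Pitx1 exceeded Pitx3 78.4-fold (36.4 to 169) and Barx1 exceeded Barx2 64.2-fold (25.7 to 160). The sizes of the folds over Pitx3 and Barx2 depend on the added 0.1 TPM. Each of the 3 families on this scale, Pitx, Barx and Otx, thus had a leading member, with the narrowest gap in the Otx pair.

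The other 3 neighbours did not differ beyond the spread. Barx1 over Pitx1 gave a log2 difference of 0.05 (interval -0.15 to 0.26), with 0.13 in replicate 1 and -0.02 in replicate 2. Gsc over Otx2 gave 0.20 (-0.13 to 0.53), with 0.47 in replicate 1 and -0.08 in replicate 2. Which gene of these pairs was higher therefore changed with the pool. Barx2 over Pitx3 gave 0.34 (-1.37 to 2.06), an interval set by few reads. For Pitx1 over Gsc both libraries, at 1.36 and 1.90, lay just outside the interval of 1.38 to 1.88, so the pooled spread was narrower than that pair's own. No p-value was computed, since 2 values against 2 cannot give a two-sided exact permutation p below 0.33.

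**Figure D3:**
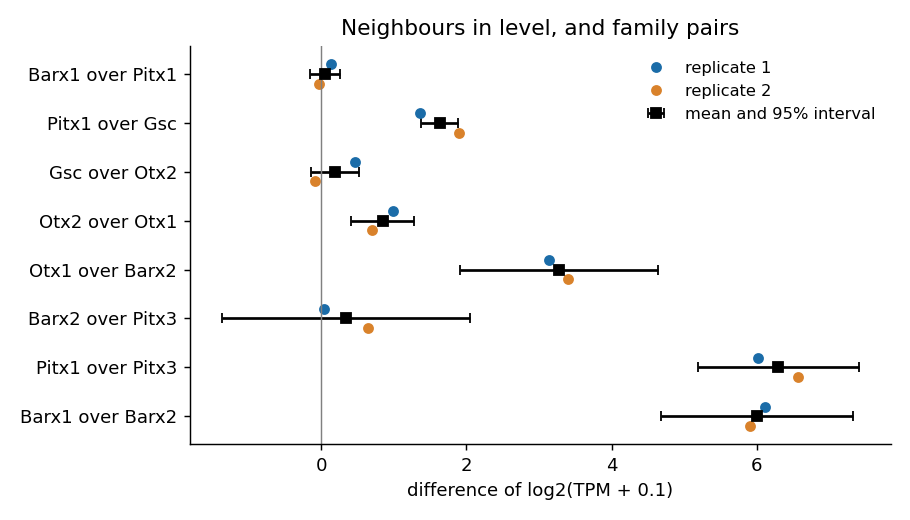
Difference of log2(TPM + 0.1) for 6 neighbours in level and 2 further family pairs, as the mean with its 95% interval (black) and as the value in each pool (colours). The intervals of Barx1 over Pitx1, Gsc over Otx2 and Barx2 over Pitx3 include 0, and the 2 pools fall on either side of 0 in the pairs Barx1 with Pitx1 and Gsc with Otx2.

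Most members were somewhat higher in replicate 1, and the gap was widest for Gsc among those with enough reads. After TMM scaling of the expected counts, the log2 ratio of replicate 2 over replicate 1 was -0.78 for Gsc, -0.40 for Barx1, -0.29 for Otx2, -0.18 for Pitx1 and 0.04 for Otx1. TMM matches the libraries on the bulk of their genes. On this scale 4 of the 5 genes were higher in replicate 1, beside 6810 of 14118 genes averaging 50 counts or more. None of these 5 genes, each averaging 50 counts or more, was 2-fold apart, beside 1.24% of 14118 such genes and 0.68% as higher in replicate 1. Scaling on the spike-in controls gave -0.17 for Otx1 and moved the median of all these genes by -0.22 on the log2 scale. Gsc, 1.71-fold higher in replicate 1, was the 1 member past 1.5-fold, beside 4.65% of the same genes in either direction and 2.66% as higher in replicate 1. The median absolute log2 ratio over all those genes was 0.09.

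Read counts were also set against each other in an exact binomial test (two-sided, Benjamini-Hochberg adjusted over 17546 genes), which compares these 2 libraries and no condition. It called Gsc (adjusted p = 6.92e-13), Barx1 (4.64e-12), Pitx1 (0.000267) and Otx2 (0.00607), all higher in replicate 1, and called 26.3% of all genes in either direction and 12.3% as higher in replicate 1. It did not call Otx1 (adjusted p = 0.799), Barx2 (0.757) or Pitx3 (0.145). Pitx3, below the count minimum, had a log2 ratio of -1.04 from 19 and 8 reads.

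**Figure D4:**
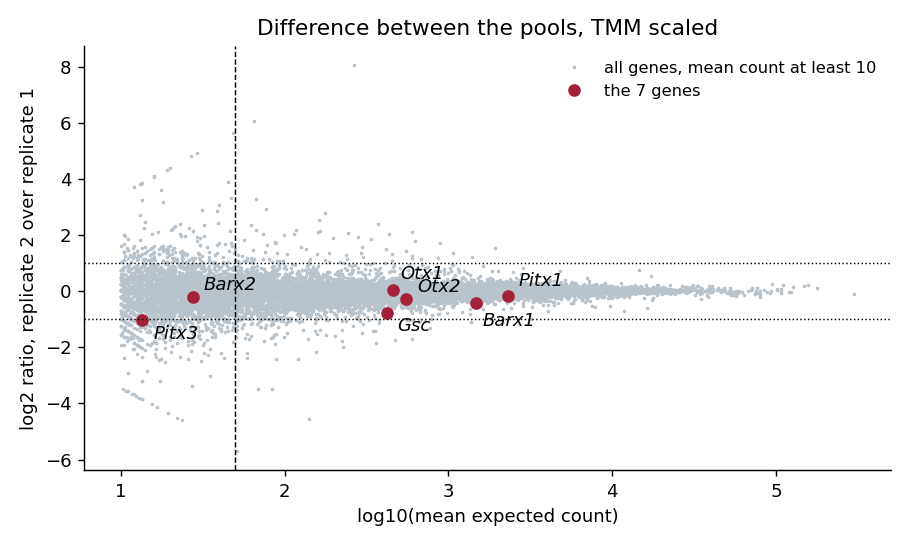
Log2 ratio of replicate 2 over replicate 1 after TMM scaling against log10 of the mean expected count, with genes averaging 10 counts or more in grey and the 7 genes in red. Dotted lines mark 2-fold and the dashed line the mean count of 50; Gsc, at -0.78, is the lowest red point right of that line.

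Other homeodomain genes were set beside the members. Genes whose translated coding sequence holds tryptophan, phenylalanine or tyrosine, any residue, asparagine and a pair of arginines numbered 155, all 7 members among them. A few matches may not be homeodomains, and homeodomains without this motif were not counted. The shares and ranks below therefore hold within this search only. With phenylalanine alone, as first planned, the search found 151 and missed both Barx genes, which carry tyrosine there. Of the 155, 69 were detected (44.5%), and by mean TPM Barx1 ranked 5, Pitx1 7, Gsc 20, Otx2 21, Otx1 34, Barx2 80 and Pitx3 88. Lysine at position 50 marked 16 genes, of which 12 were detected (75.0%), and Pitx1 ranked 1 among them. Glutamine there marked 119 genes, of which 45 were detected (37.8%).

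Larger replicate ratios occurred among other homeodomain genes. Of 76 genes of this search averaging 50 counts or more, 15 were 2-fold apart (19.7%, beside 1.24% of all genes), 14 of them higher in replicate 2. The 15 included 5 Hox genes, beside 39 Hox genes among all 155 of the search, and none of the members. The 4 members that the test on reads called were all higher in replicate 1.

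Transcript estimates could be compared for the 4 members with more than 1 annotated transcript, since Gsc, Barx1 and Barx2 have 1 each. In all 4 the libraries shared the leading transcript. By the authors' posterior mean shares 3 of 4 did, the exception being Pitx3. Pitx1-201, which codes the whole protein of 315 residues, held 86.2% of Pitx1 in replicate 1 and 91.3% in replicate 2 (88.7% ± 3.62). Pitx1-202, which begins upstream at 55836192 and is incomplete in the annotation, held the other 13.9% and 8.73%, at 6.17 and 3.22 TPM. These rested on 89.2 and 46.3 expected counts.

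The reads of Pitx1-202 partly coincide with those of another gene. Gm28760, a lincRNA gene on the same strand (chromosome 13, 55835360 to 55836095), shares 108 bases with the first exon of Pitx1-202. It received 11.9 and 14.2 expected counts, and its counts and those of Pitx1 added up to the whole numbers 2496 and 2150. The share of Pitx1-202 is therefore uncertain by the few reads divided between the 2 genes, and also by the split of reads between the Pitx1 transcripts. The expected counts of Pitx1-202 carried a posterior SD of 8.71 and 7.94 reads given by the authors, and those of Pitx1-201 one of 8.56 and 7.72.

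Otx2 used several transcripts. Otx2-201, which begins at 48665106, held 64.9% in replicate 1 and 59.0% in replicate 2 (61.9% ± 4.19), and Otx2-202, which begins at 48667513, held 22.3% and 24.9% (23.6% ± 1.84). In TPM, Otx2-201 had 8.05 and 6.14, and Otx2-202 had 2.76 and 2.59. The estimate of Otx2-202, 118 and 110 expected counts, carried a posterior SD of 21.3 and 20.7 reads given by the authors. None of the other 6 transcripts reached 10% in either library.

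These Otx2 transcripts differ in the coding sequence as well as in the start. Otx2-202 codes 297 residues and Otx2-201 codes 289, because an exon of Otx2-202 begins 24 bases, or 8 codons, earlier (chr14:48661451-48661474, minus strand, exonic). The junction is shown, since these bases are what sets the proteins apart: capitals mark the 24 extra bases and lower case the 15 coding bases on each side.
Otx2-202: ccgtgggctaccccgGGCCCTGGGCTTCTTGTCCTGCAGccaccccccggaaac

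Transcripts that hold these bases made up 22.3% of Otx2 in replicate 1 and 24.9% in replicate 2. The extra codons lie before the homeodomain. Grouped by start, the 4 transcripts that begin between 48667508 and 48667644 held 31.5% and 33.5%, and the 2 that begin at 48665106 and 48665521 held 67.1% and 64.8%. The remaining 2 start farther downstream and held 1.48% and 1.65%. By M21 coordinates, the middle start thus held the larger share in both pools. The file's Otx2-201 has 2284 bases and the M21 model 2144, so where the quantified model starts is not known here. The other 18 transcripts had the same length in the file and in M21.

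For Otx1, Otx1-201 held 94.99% in replicate 1 and 90.17% in replicate 2 (92.6% ± 3.41), and codes 355 residues. Otx1-203, a retained intron transcript that codes no protein, did not reach 10%, at 5.01% and 5.86%. The shares of Pitx3, 94.2% and 76.4% for Pitx3-201, rested on 18.8 and 7.58 expected counts. Otx1 and Pitx1 RNA was thus mostly assigned to the full-length coding transcript.

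**Figure D5:**
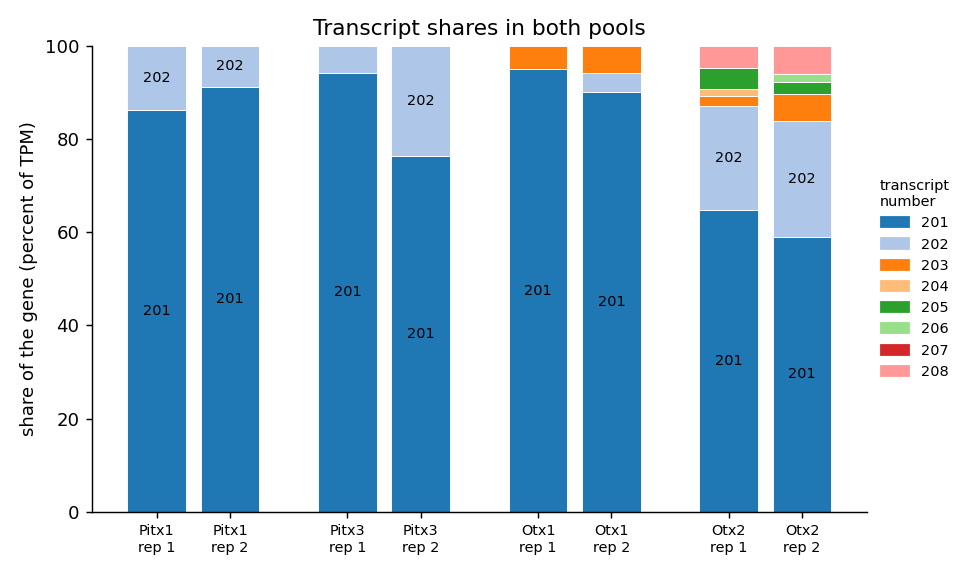
Share of each annotated transcript within its gene, as percent of the gene's TPM, for the 4 members with several transcripts in replicate 1 and replicate 2; colours give the transcript number. Transcript 201 leads in every bar, and Otx2 shows the most mixed bars, with 22.3% and 24.9% in transcript 202.

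Within 10 kb of the 7 members the M21 annotation holds 12 other genes, 6 of which were in the files. Otx2os1, a lincRNA gene on the opposite strand that overlaps the M21 span of Otx2 by 5112 bases, had 0.95 TPM in replicate 1 and 0.31 TPM in replicate 2, from 16 and 6 reads. By M21 coordinates, all 8 Otx2 transcripts in the files begin at or below 48667644, short of Otx2os1, which starts at 48668708. The overlap thus lies outside these 8 transcripts as M21 models them. Whether counting used the read strand is not given in the sources used here. Elovl3, which overlaps the end of Pitx3 by 10 bases, had 0 and 1 read, and Gm23469, an snRNA gene near Otx2, had none. Gbf1, near Pitx3, stood at 34.9 ± 2.04 TPM and Ehbp1, near Otx1, at 6.18 ± 0.785 TPM. No level is given for the other 6, among them the antisense genes Gm47071 at Pitx1 and Gm31497 at Barx2 and the lncRNA gene Gm10000 beside Gsc.

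Genes of the tissues in which the members act, and of some related tissues, were counted from lists. Their detected shares are read beside the 58.2% of all protein coding genes. All 16 jaw mesenchyme regulators were detected (median 30.0 TPM), led by Msx1 at 292 ± 15.1 TPM. Hand1, a ventral jaw gene, had 18.1 TPM in replicate 1 and 41.8 in replicate 2, a 2.36-fold difference after TMM scaling. That is the opposite direction to Gsc and Barx1. All 13 genes of the endothelin and BMP inputs were detected (median 20.0 TPM), from Gna11 at 67.0 ± 0.17 TPM to the ligand Edn1 at 1.41 ± 0.127. Of 14 genes of the dental and stomodeal epithelium 10 were detected (median 5.64 TPM), with Lef1 at 47.8 ± 4.25 and Isl1 at 45.5 ± 5.90. Wnt10b and Foxi3 lay below 1 TPM at 0.285 ± 0.0495 and 0.275 ± 0.0636. Isl1 also stands in the neuron list below, so its reads cannot be assigned to epithelium.

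Lists of the other places where Pitx and Otx genes act had lower medians than the jaw mesenchyme list. The pituitary primordium list had 5 of 10 detected (median 1.85 TPM), and Pomc, the pituitary prohormone gene, had 13.5 and 5.01 TPM, a 2.61-fold difference after TMM scaling. Lhx4, a regulator of pituitary growth in the same list, lay the other way, with 0.93 and 2.10 TPM, and the list's median log2 ratio was 0.06. In the lens list 4 of 12 were detected (0.983 TPM). Pax6 (11.0 and 18.6 TPM) and Cryab (7.54 and 7.09 TPM) led it, and the crystallin gene Crygd and Lim2 had no reads. For midbrain dopamine neurons 6 of 10 were detected (2.44 TPM), led on average by Slc18a2 at 9.35 and 10.5 TPM. Slc6a3, the dopamine transporter gene, had 0.01 and 0.17 TPM. Aldh1a1, a retinaldehyde dehydrogenase gene, was 3.59-fold higher in replicate 1, at 11.1 and 2.99 TPM. The forebrain and midbrain list had 10 of 12 detected (2.84 TPM), led by Lhx2 at 15.8 ± 1.17 TPM, and its 1 gene past 2-fold, Wnt8b, had 0.47 and 1.27 TPM. The retina and pigment epithelium list had 7 of 10 detected (1.94 TPM). Its pigment genes Pmel (14.6 and 6.93 TPM) and Tyr (0.86 and 0.40 TPM) were just over 2-fold higher in replicate 1, while Neurod4, a neuronal differentiation gene, was 2.25-fold higher in replicate 2 (4.95 and 10.9 TPM). The olfactory and otic placode list had 10 of 12 detected (11.8 TPM), with Oc90 (6.87 and 17.5 TPM) and Neurog2 (2.70 and 5.89 TPM) past 2-fold and higher in replicate 2.

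The hindlimb list, for a tissue outside the face where Pitx1 acts, had 0 of 7 genes detected (1 when replicate 1 was left out). Tbx4 had 0.86 and 1.13 TPM, and Hoxc9 and Hoxd11 had no reads. A library without reads of a gene still allows up to 3, from counting error. The foregut endoderm list does not cover the stomach mesenchyme where Barx1 acts. It had 6 of 9 detected (2.25 TPM), with Nkx2-1 at 7.62 TPM in replicate 1 and 3.66 in replicate 2. Pdx1 and Cdx2 had no reads. Of 10 jaw muscle precursor genes 5 were detected (2.69 TPM), and 8 when replicate 2 was left out. The muscle regulators Myog (2.65 and 0.52 TPM) and Myod1 (1.68 and 0.50 TPM) were more than 2-fold higher in replicate 1. Actc1, a muscle actin gene, was 2.11-fold higher in replicate 2 (8.10 and 16.8 TPM), and Tbx1 had 6.99 and 6.96 TPM. The list's median log2 ratio was -0.15.

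Markers of the labelled tissue were present throughout. All 9 neural crest mesenchyme genes were detected (median 38.5 TPM), and their summed level was 724 TPM in replicate 1 and 621 in replicate 2. All 8 surface ectoderm genes were detected (35.6 TPM, sums of 324 and 329), as were 8 of 8 neuron genes (63.2 TPM, sums of 544 and 554), 7 of 7 endothelial genes (21.5 TPM) and 7 of 7 erythroid genes (40.9 TPM). Replicate 2 over replicate 1 gave a median log2 ratio of -0.20 for the mesenchyme list, with Col3a1 at -0.20, Prrx1 at 0.03, Alx4 at 0.04 and Meox1 at -0.56 within it. The jaw mesenchyme regulators had a median of -0.03, with sums of 807 and 817 TPM, and the ectoderm list was at 0.01. The part of tissue composition in the replicate difference of Gsc, Barx1, Otx2 and Pitx1 was not tested.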

How the data were processed

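Both pools were sequenced, with 40059176 and 39531700 expected counts in genes. Expected counts, not normalized, were deposited per gene and transcript as the authors estimated them, with posterior means. TPM values were scaled by the authors over all features, spike-in controls included. Transcript shares were deposited as percent of the gene's TPM. Per the file headers and accompanying notes, mm10 and GENCODE M4 were used; aligner and quantifier are not given in the sources used here. Genes were matched by identifier to GENCODE M21.

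Ratios used edgeR 4.0.16 (TMM, prior count 2) in R 4.3.3, with counts rounded for the binomial test (SciPy 1.17.1) and a mean count of at least 10 there and 50 for folds; DESeq2 1.42.0 size factors, spike-in scaling, other filters, pseudocounts and posterior means were alternatives. Ratios and pair intervals were tested on simulated data. The libraries are 2 samples by the labels (separate embryo pools); their counts differed by a chi-square of 8.94 per degree of freedom over 17546 genes, above the value of 1 that sampling noise alone gives. Whether anything beyond the pools differed between them is not stated in the labels. Named genes were the members, annotated genes within 10 kb, leading transcripts or those reaching 10%, and the 2 highest, 2 lowest and 2-fold members of each list; some of these are summarised only by their list, and 1 is not reported here. Members and lists were chosen with earlier results of these data known. Homeodomain genes were found by translating GENCODE M21 coding sequences, since no protein table was used here; allowing tyrosine in the search was chosen after seeing the data. With 2 libraries, no genes were ranked by likeness of pattern.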

Additional observations from a re-analysis of the deposited data

How the results depend on the processing

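Of the 5 pair differences beyond the spread, all kept direction and call under other pseudocounts, spreads and posterior means and in either pool alone. Their sizes depended on the pseudocount where Pitx3 or Barx2 was the lower gene. At pseudocounts of 0.01 and 1, the log2 difference was 6.58 and 4.86 for Pitx1 over Pitx3. It was 6.21 and 4.79 for Barx1 over Barx2, and 3.47 and 2.22 for Otx1 over Barx2. The 4.86 lay below the main interval's lower limit of 5.18, and posterior mean TPM gave 5.33 for that pair. Pair differences within the spread were less stable in direction. With 1 replicate left out, the log2 difference of Barx1 over Pitx1 lay between -0.0232 and 0.13 and that of Gsc over Otx2 between -0.0804 and 0.47, the higher value, from replicate 1 alone, being past the spread. Barx2 over Pitx3 turned to -0.58 with posterior mean TPM, where Pitx3 averaged 0.915 TPM against 0.44; the cause was not tested. Spike-in scaling turned the log2 ratio of Otx1 to -0.17 and kept the sign of the other members. No member was 2-fold apart with DESeq2 size factors, library totals, spike-in scaling, a prior count of 0.5 or posterior mean counts. Gsc came just short of it under spike-in scaling, with a log2 ratio of -0.993. Members past the fold numbered 1 of 7 (Pitx3) with no count filter or a minimum of 10, and 1 of 5 (Gsc) at 1.5-fold. Over all genes, 175 of 14118 (1.24%) became 2389 of 24644 (9.69%) with no filter. They became 686 of 17546 (3.91%) with a minimum of 10 and 656 of 14118 (4.65%) at 1.5-fold, as more genes or smaller folds entered. Higher in replicate 1 were 96 of the 175, and 187 of 236 under spike-in scaling. Posterior mean shares put Pitx3-201 at 38.5% in place of 85.3%, on under 20 reads per library. At 0.5 TPM the lens list had 8 detected, the jaw muscle list 8 and the hindlimb list 1, and at 2 TPM the retina list had 4. The jaw muscle list also had 8 without replicate 2, and the hindlimb list 1 without replicate 1. Leaving out a replicate could not be run for the replicate ratio itself. No paired analysis was possible because there is 1 group. Depth limits Pitx3 and Barx2, with 8 to 30 reads per library.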

Other observations

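Several homeodomain genes outside the 7 differed between the pools by more than any member. They were chosen here after their values were seen. Dbx2, a gene of neural tube progenitors, had 0.12 TPM in replicate 1 and 1.39 in replicate 2. Dbx1, its relative, had 4.34 and 18.3 TPM. Meox2, a mesenchyme and muscle precursor gene, was the 1 of the 15 homeodomain genes 2-fold apart that was higher in replicate 1, with 2.32 and 0.59 TPM.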
